A study of Homo sapiens with 18 samples.

Results

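The genes of the BCL2 family, the caspases and their adaptors, the caspase inhibitors and the death receptors with their ligands were followed in SK-N-MC cells exposed to rotenone. The list holds 49 genes, and a gene was measured through the array probe sets that the platform annotation assigns to it alone. Such probe sets were found for 43 of the 49 genes, 40 of them passed the filter on low signal (at least 50 on at least 3 arrays), and these 40 are described beside the 9162 genes tested in all. BIK, CASP4 and TNFSF10 had probe sets of their own that stayed below the filter. BBC3 and PDCD4 were matched only by probe sets shared with other genes, and BIRC3, TNFRSF10A, RIPK1 and TRAF2 had no probe set in the annotation used here, so these 6 genes have no value.

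Apoptosis can start at the mitochondrion, where the BCL2 proteins that guard the outer membrane are opposed by BAX and BAK1 and by BH3-only proteins, and where released cytochrome c assembles APAF1 and caspase 9 into the apoptosome. It can also start at the cell surface, where ligands of the tumour necrosis factor family bind death receptors that recruit FADD or TRADD and activate caspase 8 and caspase 10. Both routes end in effector caspases, which XIAP and related inhibitors restrain, and the TNF receptor can signal through NF-kB towards survival as well as towards death.

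SK-N-MC is a human tumour line, called neuroepithelioma in the sample labels and neuroblastoma in the study's text. Cells grown without pyruvate received vehicle (0.05% ethanol), 5 nM or 50 nM rotenone, an inhibitor of mitochondrial complex I that also destabilises microtubules, for 1 or 4 weeks. Each of the 6 groups has 3 arrays, 1 from each of 3 experiments, and the RNA of an array came from 5 pooled dishes, so the spread between arrays is that between experiments. The sample labels describe the lower dose as non-lethal for these cells and the higher one as killing some of them. The study's text calls the lower dose marginally toxic, with a small but significant share of dead cells, and the higher one moderately toxic. Since the cultures were measured in bulk, fewer cells of a kind and less RNA per cell cannot be told apart.

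The array medians lay between 87.0 and 102, a 1.17-fold range. The 1-week vehicle arrays were the least alike of any group, with a lowest correlation of 0.914 against 0.967 to 0.988 in the others, where 4-week 5 nM replicate 3 gave the lowest value. On the 6 rotenone arrays of 4 weeks, 18 hybridisation control probe sets read 0.496 times their level on the other 12 arrays. The part of this in the results below was not tested. The values of 1-week 5 nM replicate 2 and 1-week 50 nM replicate 3 fit the published group means only when the pair is exchanged, so results are given as labelled and, where a call changed, also with these arrays exchanged. Of 12 markers of Ewing family tumours 10 had a probe set and none of these averaged below 50 in any group. Their signals summed to 14221 to 14655 on the 4-week vehicle arrays, 13178 to 15021 with 5 nM and 11367 to 12852 with 50 nM. GLI1 and PRKCB were called lower with both doses at 4 weeks, CCND1 and CD99 with 50 nM alone and PAX7 with 5 nM alone. The other Ewing markers were not called. Of the 8 measured noradrenergic neuroblastoma markers, 4 to 6 averaged below 50 depending on the group, with TH, PHOX2A, HAND2 and DDC below it in every group. GATA3 averaged 117 to 201 and ISL1 75.4 to 152 over the groups, and CHGA and DBH averaged above 50 in some groups. The 8 leukocyte markers summed to 711 to 850.0 on the 4-week vehicle arrays, 1652 to 1982 with 5 nM and 463 to 567 with 50 nM. The 5 nM sum followed PTPRC, which averaged 417 with vehicle, 1483 with 5 nM and 209.9 with 50 nM, while LCP1 averaged 255, 227 and 158 and 5 of the 8, CD14 and CD3D among them, averaged below 50 in each of these groups. Fibroblast markers summed to 6256 to 6462 with vehicle, 4315 to 5084 with 5 nM and 4284 to 4727 with 50 nM, though with 5 nM COL1A2 was lower (log2 fold change -1.54, adjusted p = 6.49e-05) and LUM higher (1.83, adjusted p = 0.0186). With 50 nM COL3A1 averaged 99.8 against 830 with vehicle, while COL1A1 averaged 949 against 942. Neuronal markers summed to 3225 to 3647 with vehicle, 1505 to 3329 with 5 nM and 1984 to 2389 with 50 nM. TUBB3 was the largest part of that sum and averaged 2595, 2063 and 1198 in these groups. SYT1 fell with both doses as well (212, 98.1 and 112), whereas DCX averaged 336, 114 and 614 and GAP43 95.3, 118.5 and 106.5. Whether these shifts have a part in the member values was not tested.

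After 4 weeks the death ligands TNF and FASLG, the receptor gene FAS and the adaptor gene TRADD were called lower with both doses. The initiator caspase gene CASP8, its binding partner CASP8AP2, the caspase inhibitor XIAP and the BCL2-type protector BCL2L2 were called higher with both. These calls are those of the probe set used for each gene. For FASLG, FAS, TRADD, CASP8 and XIAP another probe set was not called with at least 1 dose. TNFAIP3 fell with both doses on both of its probe sets. The 5 nM calls of CASP8, XIAP and BCL2L2 were each lost without at least 1 single array. With 5 nM, 6 of the 40 genes were called higher and 12 lower (adjusted p below 0.05), where 18.6% of all genes tested were called higher and 14.3% lower. With 50 nM, 6 were higher and 7 lower, where the shares over all genes were 23.5% and 17.7%. The 5 nM count was 2 higher and 11 lower without vehicle replicate 1, and 3 higher and 9 lower without 5 nM replicate 3, with no share over all genes counted for these. The members' median log2 fold change was -0.18 with 5 nM and -0.089 with 50 nM, beside 0.028 and 0.017 over all genes. The doses share their vehicle arrays, so their values are set side by side without reading agreement between them. At the level of probe sets, 79 of the members' 101 passed the filter. With 5 nM, 9 were called higher and 22 lower (18.3% and 14.1% of all probe sets), and with 50 nM 9 were higher and 14 lower (22.9% and 18.1%).

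**Figure D1:**
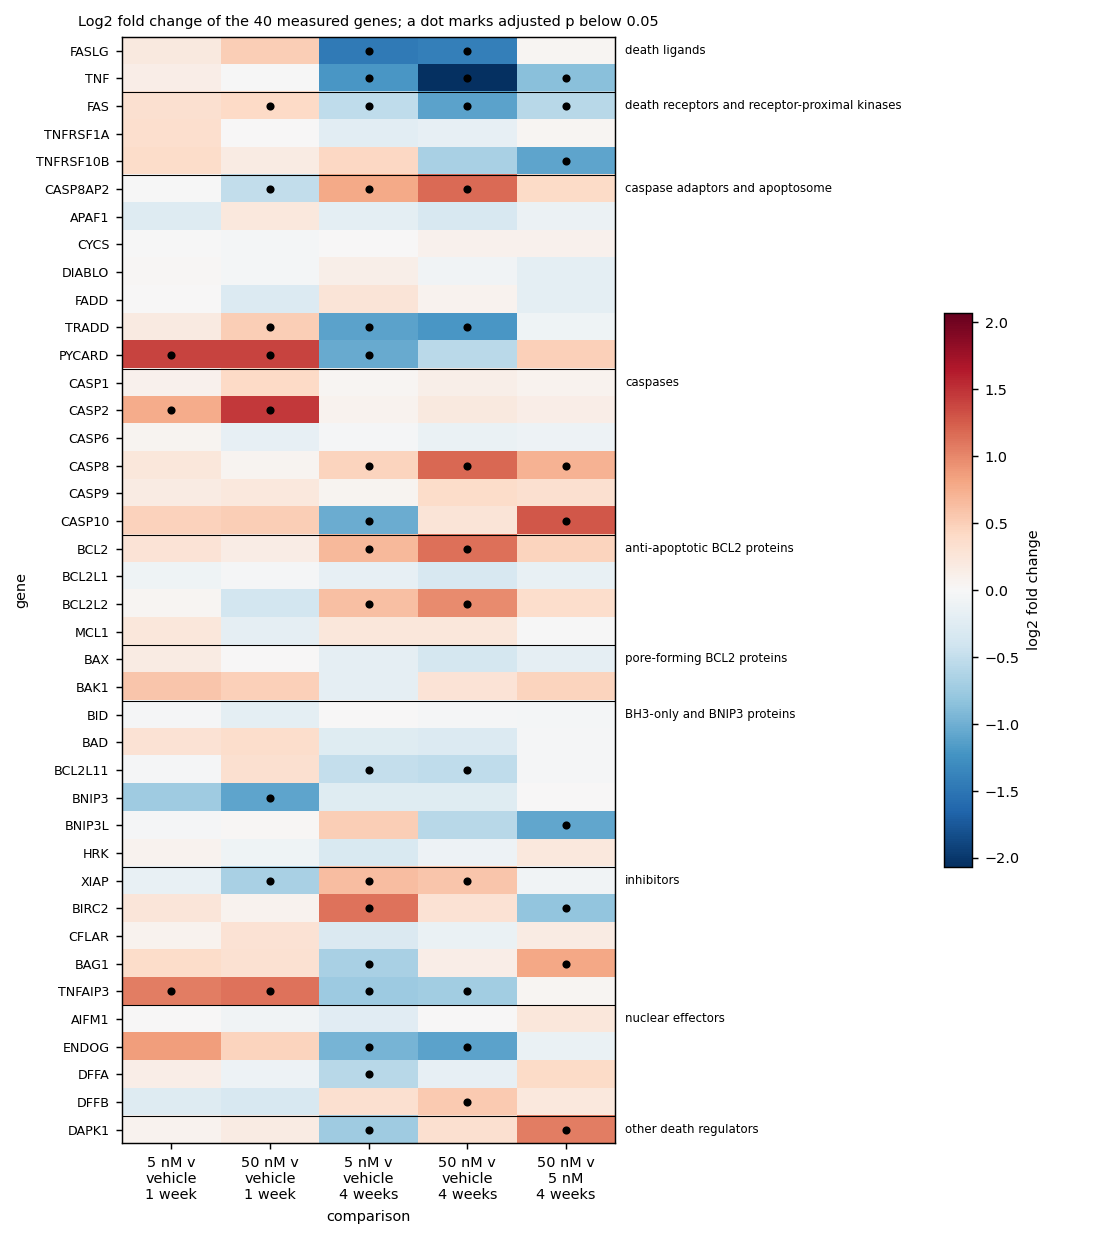
Log2 fold change (colour) of the probe set used for each of the 40 measured genes (rows, grouped by role) in 5 comparisons (columns). A black dot marks an adjusted p below 0.05. The death ligands, FAS and TRADD are blue in both 4-week columns against vehicle, and CASP8, CASP8AP2, BCL2L2 and XIAP are red.

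TNF, the ligand of the TNF receptors, showed the largest fall of any member with 50 nM. Its signal was 63.0, 68.0 and 70.1 on the 4-week vehicle arrays, 26.4, 30.5 and 30.7 with 5 nM and 9.65, 14.3 and 13.4 with 50 nM. The 3 groups did not overlap, and all 3 arrays with 50 nM lay below 16, the value to which lower signals were raised before the test. TNF was therefore at least 4.19-fold lower with 50 nM (log2 fold change -2.07, SE 0.20, adjusted p = 2.51e-06) and 2.30-fold lower with 5 nM (log2 fold change -1.20, SE 0.20, adjusted p = 0.000246). At 1 week the TNF signal was between 43.0 and 83.7 on all 9 arrays and neither dose was called.

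FASLG, the ligand of FAS, read 109, 104 and 98.4 with vehicle, 36.6, 41.0 and 36.3 with 5 nM and 46.5, 33.3 and 37.8 with 50 nM at 4 weeks on its stronger probe set, 211333_s_at. The 2 doses overlapped each other and both lay below every vehicle array. The fall was 2.74-fold with 5 nM (log2 fold change -1.45, SE 0.18, adjusted p = 2.28e-05) and 2.68-fold with 50 nM (log2 fold change -1.42, SE 0.18, adjusted p = 1.59e-05). The dimmer probe set, 210865_at, spanned 24.2 to 46.4 on the same 9 arrays and was not called with either dose, with log2 fold changes of 0.13 and 0.28, so the fall rests on 1 of the 2 probe sets.

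The death receptor gene FAS fell with dose on 216252_x_at, the probe set used for the gene. The signal was 85.7, 74.3 and 76.2 with vehicle, 58.6, 56.7 and 49.6 with 5 nM and 36.6, 35.8 and 37.5 with 50 nM, and no group overlapped another. FAS was 1.43-fold lower with 5 nM (log2 fold change -0.52, SE 0.14, adjusted p = 0.00804), 2.14-fold lower with 50 nM (log2 fold change -1.10, SE 0.14, adjusted p = 1.49e-05) and lower again with 50 nM than with 5 nM (log2 fold change -0.58, SE 0.14, adjusted p = 0.00787). A second probe set, 204780_s_at, fell with 50 nM by 1.00 on the log2 scale (adjusted p = 0.0190) but not with 5 nM, where it read 71.1, 63.6 and 42.2 against 42.2, 53.6 and 47.2 with vehicle. With the mean over the gene's probe sets the call with 5 nM was lost (log2 fold change -0.12, adjusted p = 0.675). Probe sets 204781_s_at and 215719_x_at lay below the filter and were not tested. The first read 46.7, 43.8 and 40.4 with vehicle, 67.9, 57.6 and 36.9 with 5 nM and 28.6, 23.4 and 49.8 with 50 nM. The second read 45.8, 38.3 and 44.95, then 71.7, 68.3 and 40.5, and 15.3, 14.3 and 34.9. The fall with 5 nM thus rests on 216252_x_at alone.

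Of the other receptors, TNFRSF1A, which binds TNF, was not called in any dose comparison, and its 9 arrays at 4 weeks lay between 195 and 255. TNFRSF10B, a receptor for the ligand TRAIL, read 709.6, 705 and 705 with vehicle, 789, 753 and 1433 with 5 nM and 482, 462 and 397 with 50 nM. The 5 nM arrays lay above and the 50 nM arrays below every vehicle array, but neither dose was called against vehicle, with log2 fold changes of 0.42 and -0.67. The fall with 50 nM was called with quantile normalization (adjusted p = 0.0237), with only the groups compared (adjusted p = 0.000541) and with array weights (adjusted p = 0.00134). The difference between the doses was called, 2.13-fold lower with 50 nM (log2 fold change -1.09, SE 0.30, adjusted p = 0.0185), and the arrays of the doses did not overlap. The highest 5 nM value came from replicate 3, and without it the difference was -0.79 (adjusted p = 0.0802). The call was also lost without 50 nM replicate 1, 2 or 3 (adjusted p 0.0506 to 0.0512). Probe set 210405_x_at of the same gene was called lower too (log2 difference -1.53, adjusted p = 0.0359) and 209294_x_at was not (-1.52, adjusted p = 0.0554).

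**Figure D2:**
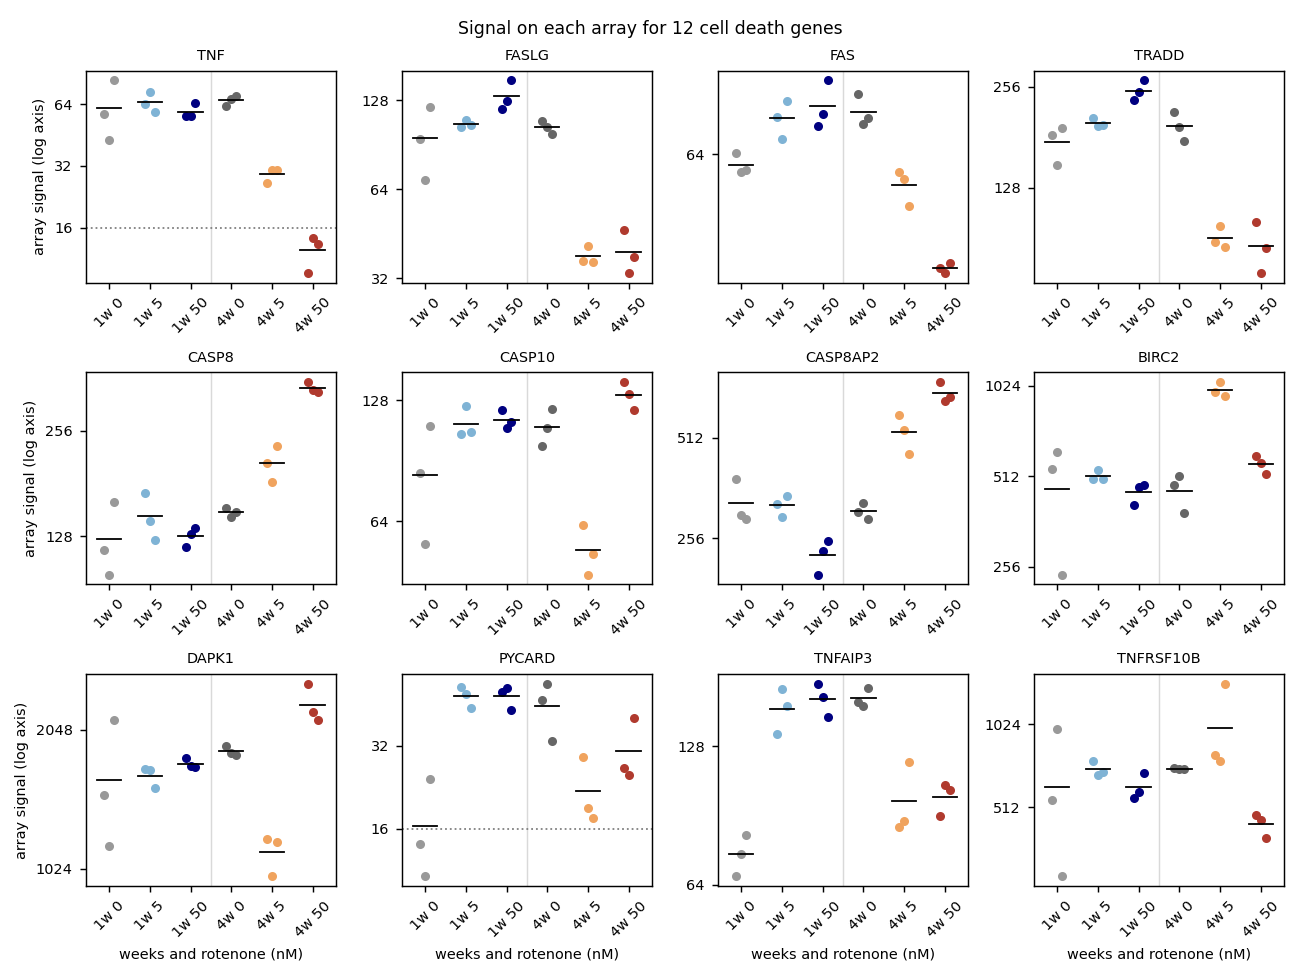
Deposited signal (log axis) on each of the 18 arrays for 12 genes, by weeks and rotenone dose in nM; points are arrays and short lines are group means, and the dotted line marks a signal of 16. TNF with 50 nM at 4 weeks lies below that line on all 3 arrays, CASP10 and DAPK1 at 4 weeks are lowest with 5 nM, and TNFAIP3 is lowest on the 1-week vehicle arrays.

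TRADD, the adaptor that the TNF receptor recruits, read 216, 194 and 176 with vehicle and fell to 87.9, 98.2 and 85.1 with 5 nM and 101, 71.2 and 84.5 with 50 nM. Every rotenone array lay below every vehicle array. The fall was 2.16-fold with 5 nM (log2 fold change -1.11, SE 0.14, adjusted p = 3.03e-05) and 2.30-fold with 50 nM (log2 fold change -1.20, SE 0.14, adjusted p = 9.01e-06). The second probe set, 1729_at, was lower by 0.35 and 0.27 on the log2 scale without being called (adjusted p = 0.0573 and 0.127). FADD, the adaptor of FAS, was not called in any comparison, with log2 fold changes of 0.26 and 0.065 at 4 weeks.

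TNFAIP3 encodes A20, an inhibitor of NF-kB signalling at the TNF receptor that NF-kB itself induces. Both of its probe sets fell with both doses at 4 weeks. On 202644_s_at the signal was 159.9, 157 and 172 with vehicle, 85.5, 88.2 and 118 with 5 nM and 90.3, 105 and 103 with 50 nM, and the doses lay below every vehicle array. The changes were log2 fold change -0.76, SE 0.14, adjusted p = 0.000764, with 5 nM and log2 fold change -0.71, SE 0.14, adjusted p = 0.000797, with 50 nM.

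The stretches before the start sites that RefSeq promoter entries use for TNF, TNFAIP3 and CASP8AP2 are shown because TNF fell most with 50 nM, TNFAIP3 fell on every probe set, and CASP8AP2 rose with both doses. They are 250 bases each, on the plus strand of GRCh38.p14, taken from RefSeq, where 39 of the 49 genes had such an entry. TNF is at chr6:31575315-31575564, TNFAIP3 at chr6:137867009-137867258 and CASP8AP2 at chr6:89829630-89829879. The TNF and CASP8AP2 stretches end where the annotated gene begins, whereas the annotated TNFAIP3 gene begins at position 137866349 of chromosome 6, so its stretch lies inside the gene. Capitals mark the TATA box searched as TATAAA, the CCAAT box, the GC box searched as GGGCGG, and the NF-kB consensus. Each was searched on both strands, and some GC boxes of TNFAIP3 overlap each other.
TNF: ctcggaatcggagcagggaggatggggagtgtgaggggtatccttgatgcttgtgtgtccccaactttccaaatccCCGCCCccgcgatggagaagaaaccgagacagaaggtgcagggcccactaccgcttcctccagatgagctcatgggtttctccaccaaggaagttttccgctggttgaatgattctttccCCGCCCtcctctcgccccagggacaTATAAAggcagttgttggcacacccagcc
TNFAIP3: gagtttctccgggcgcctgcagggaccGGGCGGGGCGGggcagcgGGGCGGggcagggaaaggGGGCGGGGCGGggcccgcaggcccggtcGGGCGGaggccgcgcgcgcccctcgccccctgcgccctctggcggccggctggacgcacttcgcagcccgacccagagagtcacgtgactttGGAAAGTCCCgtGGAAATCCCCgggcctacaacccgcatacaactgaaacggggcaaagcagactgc
CASP8AP2: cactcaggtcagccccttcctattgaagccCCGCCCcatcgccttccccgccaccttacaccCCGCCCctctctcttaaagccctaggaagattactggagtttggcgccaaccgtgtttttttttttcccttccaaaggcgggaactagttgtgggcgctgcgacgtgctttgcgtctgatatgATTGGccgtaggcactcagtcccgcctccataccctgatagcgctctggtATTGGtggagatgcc
The TNF stretch holds a TATA box 29 bases before the start and 2 GC boxes. TNFAIP3 holds 6 GC boxes and 2 matches of the NF-kB consensus, which begin 67 and 55 bases before the start. CASP8AP2 holds 2 CCAAT boxes and 2 GC boxes and neither of the others. Over 35116 RefSeq promoter entries, 10.7% hold the TATA box, 32% the CCAAT box, 42.6% the GC box and 5.21% the NF-kB consensus. Of the 39 members with an entry, 29 hold the GC box, 23 the CCAAT box and 5 the TATA box in this window. The NF-kB consensus is held by 4, BIRC3, CFLAR, FAS and TNFAIP3. Members were counted by gene over any of its entries, so these counts are not set against the shares of entries. A match is a run of letters and not a measured site.

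Among the caspases, CASP8, the initiator caspase of the receptor route, rose with dose. Probe set 213373_s_at read 154, 145 and 150.1 with vehicle, 208, 183 and 232 with 5 nM and 353, 335 and 331 with 50 nM at 4 weeks. The 3 groups did not overlap. CASP8 was 1.38-fold higher with 5 nM (log2 fold change 0.47, SE 0.16, adjusted p = 0.0312), 2.27-fold higher with 50 nM (log2 fold change 1.18, SE 0.16, adjusted p = 2.54e-05) and 1.64-fold higher with 50 nM than with 5 nM (log2 fold change 0.72, SE 0.16, adjusted p = 0.00492). The call with 5 nM was lost with quantile normalization (adjusted p = 0.118) and without any 1 of the vehicle arrays or 5 nM replicate 1 or 3 (adjusted p 0.0617 to 0.106). The dimmer probe set 207686_s_at read between 83.4 and 132 on the 9 arrays and was not called with either dose, with log2 fold changes of -0.04 and 0.088. Over the mean of the probe sets neither the 5 nM change (0.21, adjusted p = 0.280) nor the difference between doses (0.42, adjusted p = 0.0552) was called. The patterns closest to CASP8 among all genes tested were those of TASP1, ZNF529 and UVRAG, with Pearson r of 0.955, 0.952 and 0.951 over the 18 arrays, which share their group structure.

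CASP10, a second initiator caspase that death receptors recruit, was called against vehicle with the lower dose alone. Its probe set 205467_at read 98.5, 109.5 and 122 with vehicle, 62.6, 47.1 and 52.9 with 5 nM and 142, 132 and 121 with 50 nM. The 5 nM arrays lay below all others of 4 weeks, and the 50 nM arrays overlapped vehicle. CASP10 was 2.04-fold lower with 5 nM (log2 fold change -1.03, SE 0.19, adjusted p = 0.000634), was not called with 50 nM (log2 fold change 0.26, SE 0.19, adjusted p = 0.279) and was 2.45-fold higher with 50 nM than with 5 nM (log2 fold change 1.29, SE 0.19, adjusted p = 0.000432). Probe set 210708_x_at was not called in any of these, and over the mean of the probe sets the 5 nM change was -0.38 (adjusted p = 0.0538).

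CASP2 illustrates how far probe sets of 1 gene can differ. The probe set with the highest mean, 34449_at, was not called at 4 weeks (0.071 with 5 nM and 0.21 with 50 nM). Another 3 fell with both doses: 208050_s_at by 0.62 and 0.56, 209812_x_at by 0.61 and 0.56, and 211140_s_at by 0.84 and 0.76 on the log2 scale. On 211140_s_at the signal was 82.1, 90.4 and 82.0 with vehicle, 46.8, 52.6 and 42.9 with 5 nM and 45.7, 44.3 and 61.5 with 50 nM, without overlap between vehicle and either dose. The mean of the probe sets fell by 0.50 with 5 nM (adjusted p = 0.0142) and by 0.41 with 50 nM (adjusted p = 0.0343). CASP1, CASP6 and CASP9 were not called at 4 weeks on the probe set used, with log2 fold changes between -0.13 and 0.39, though CASP6 211464_x_at was lower with 5 nM (-0.48, adjusted p = 0.0306).

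CASP8AP2, also called FLASH, binds caspase 8 and takes part in histone transcript processing. It read 307, 325 and 293 with vehicle, 599, 539 and 458 with 5 nM and 752, 659 and 679.8 with 50 nM at 4 weeks. No group overlapped another. The rise was 1.72-fold with 5 nM (log2 fold change 0.78, SE 0.14, adjusted p = 0.000477) and 2.26-fold with 50 nM (log2 fold change 1.17, SE 0.14, adjusted p = 9.40e-06), while the difference between the doses was not called (log2 fold change 0.40, SE 0.14, adjusted p = 0.0582).

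Of the apoptosome genes, CYCS, which encodes cytochrome c, was not called, with log2 fold changes of 0.0034 and 0.085 at 4 weeks and signals of 3205 to 4335. DIABLO, whose product relieves caspases from XIAP, was not called either (0.12 and -0.073). APAF1 was not called on the probe set used, 211554_s_at, but rose on 204859_s_at with 5 nM. There the signal was 25.0, 32.2 and 26.0 with vehicle, 76.8, 74.0 and 71.5 with 5 nM and 31.0, 37.7 and 55.5 with 50 nM (log2 fold change 1.43 with 5 nM, adjusted p = 0.000744, and 0.55 with 50 nM, adjusted p = 0.114). PYCARD, the inflammasome adaptor ASC, was 2.05-fold lower with 5 nM (log2 fold change -1.04, SE 0.26, adjusted p = 0.00516) and was not called with 50 nM (log2 fold change -0.55, SE 0.26, adjusted p = 0.0957). Its signals were low, 46.8, 53.7 and 33.3 with vehicle, 29.2, 18.9 and 17.5 with 5 nM and 26.5, 25.0 and 40.2 with 50 nM, and the 50 nM arrays overlapped vehicle.

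**Figure D3:**
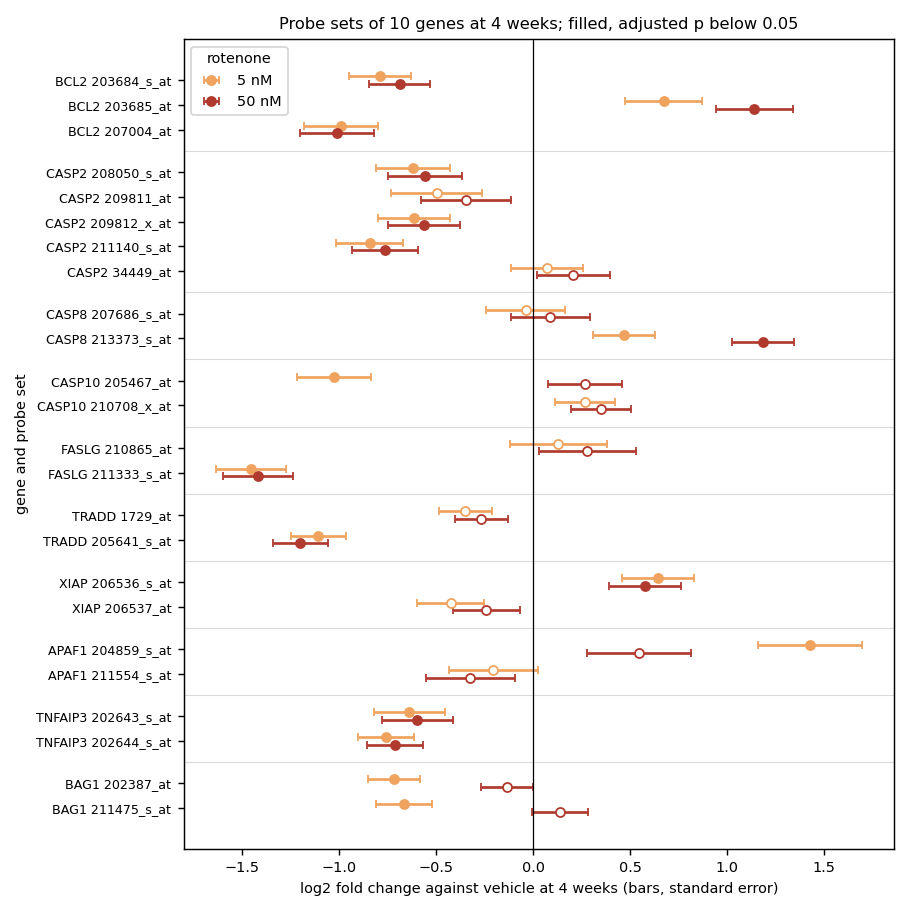
Log2 fold change against vehicle at 4 weeks (points, with standard errors as bars) of each passing probe set of 10 genes, with 5 nM in orange and 50 nM in red; filled points have an adjusted p below 0.05. BCL2 has probe sets called in both directions, CASP2 and FASLG have called beside uncalled probe sets, and the probe sets of TNFAIP3 and BAG1 lie close together.

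BCL2, the founding anti-apoptotic member of its family, was called in both directions. Probe set 203685_at, which has the highest mean and was used for the gene, read 120.1, 143 and 136 with vehicle, 185, 182 and 282 with 5 nM and 283, 269 and 328 with 50 nM. Vehicle did not overlap either dose, and the rise was 1.59-fold (log2 fold change 0.67, SE 0.20, adjusted p = 0.0141) and 2.20-fold (log2 fold change 1.14, SE 0.20, adjusted p = 0.000222). Without 5 nM replicate 3 or vehicle replicate 1 the rise with 5 nM was no longer called (adjusted p = 0.0790 and 0.0599). Probe set 203684_s_at went the other way, from 155, 154 and 140.0 to 93.2, 87.0 and 79.4 with 5 nM and 90.9, 85.5 and 102 with 50 nM. Probe set 207004_at fell as well, by 0.99 with 5 nM and 1.01 with 50 nM on the log2 scale. Averaged over its probe sets BCL2 was lower by 0.37 with 5 nM (adjusted p = 0.0160) and by 0.19 with 50 nM (adjusted p = 0.186), so no direction can be given for BCL2 as a gene. NHLRC2, ELOVL4 and PHLPP1 had the patterns closest to 203685_at, with r of 0.950, 0.938 and 0.935 over the 18 arrays.

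BCL2L2 encodes BCL-w, a protector with 1 passing probe set here. It read 162, 162 and 160.0 with vehicle, 228, 193 and 347 with 5 nM and 411, 319 and 248 with 50 nM. Every rotenone array lay above every vehicle array, with a rise of 1.54-fold (log2 fold change 0.62, SE 0.19, adjusted p = 0.0201) and 1.98-fold (log2 fold change 0.98, SE 0.19, adjusted p = 0.000662). The call with 5 nM was lost without 5 nM replicate 3 (log2 fold change 0.38, adjusted p = 0.115) or without any 1 vehicle array (adjusted p 0.0503 to 0.0558). BCL2L1 and MCL1 were not called on the probe set used, with log2 fold changes of -0.33 and 0.23 with 50 nM, but the dim MCL1 probe sets 214056_at and 214057_at were higher with both doses (0.50 and 0.99 with 50 nM).

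None of the pore-forming genes was called at 4 weeks. The log2 fold changes were -0.18 and -0.37 for BAX and -0.18 and 0.28 for BAK1. Of the BH3-only genes, BCL2L11, which encodes BIM, fell with both doses (log2 fold change -0.50, SE 0.18, adjusted p = 0.0365, and log2 fold change -0.53, SE 0.18, adjusted p = 0.0235). BID, BAD and HRK were not called in any comparison.

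BNIP3 and BNIP3L encode mitochondrial proteins that mark mitochondria for autophagy. BNIP3L was not called with either dose against vehicle at 4 weeks, but the doses differed. It read 1251, 1215 and 1327 with vehicle, 1578, 1749.8 and 2083 with 5 nM and 753, 749 and 1095 with 50 nM, so the 50 nM arrays lay below and the 5 nM arrays above every vehicle array. BNIP3L was 2.10-fold lower with 50 nM than with 5 nM (log2 fold change -1.07, SE 0.23, adjusted p = 0.00456). Against vehicle both doses were called with only the groups compared (adjusted p = 0.00941 with 5 nM and 0.0064 with 50 nM) and with array weights (0.00301 and 0.000167). The fall with 50 nM was also called with quantile normalization (adjusted p = 0.0243) and without 50 nM replicate 3 (adjusted p = 0.0251). BNIP3 was not called at 4 weeks, when its 9 arrays ranged from 460 to 1485 with overlap between all groups.

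XIAP, the most potent direct caspase inhibitor among the members, rose on 206536_s_at from 67.4, 73.5 and 84.2 with vehicle to 121, 121 and 108 with 5 nM and 118, 107 and 110.0 with 50 nM. Vehicle and rotenone arrays did not overlap. The change was log2 fold change 0.64, SE 0.18, adjusted p = 0.0122, with 5 nM and log2 fold change 0.58, SE 0.18, adjusted p = 0.0178, with 50 nM. Without vehicle replicate 1 both calls were lost (adjusted p = 0.0552 and 0.0733), and without 50 nM replicate 1 that with 50 nM was (adjusted p = 0.0642). Probe set 206537_at was lower without being called (-0.43 and -0.24), and over the mean of the probe sets neither dose was called (adjusted p = 0.609 and 0.390).

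BIRC2, an inhibitor that ubiquitinates RIPK1 at the TNF receptor, rose with 5 nM alone. It read 478, 513 and 386 with vehicle, 974, 1054 and 946 with 5 nM and 599.6, 566 and 522 with 50 nM. The 5 nM arrays lay above all others, 2.17-fold over vehicle (log2 fold change 1.12, SE 0.23, adjusted p = 0.00156), and BIRC2 was lower with 50 nM than with 5 nM (log2 fold change -0.82, SE 0.23, adjusted p = 0.0219). That difference was no longer called without any 1 of the 6 arrays other than 5 nM replicate 3 (adjusted p 0.0514 to 0.0775). BAG1, a co-chaperone that binds BCL2, fell with 5 nM alone, from 954, 879 and 764 with vehicle to 524, 495 and 618, against 996, 882 and 974 with 50 nM. The fall was 1.59-fold (log2 fold change -0.67, SE 0.14, adjusted p = 0.00206), and with 50 nM the level was 1.75-fold above that with 5 nM (log2 fold change 0.80, SE 0.14, adjusted p = 0.00125); the second probe set was called the same way in both. CFLAR, which competes with caspase 8 at FADD, was not called on the probe set used, while 2 of its 9 passing probe sets were lower with 5 nM.

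Of the genes that act in the nucleus, ENDOG, a mitochondrial nuclease, fell with both doses. It read 205, 232 and 238 with vehicle, 117, 167 and 78.5 with 5 nM and 84.7, 85.8 and 158 with 50 nM, and no rotenone array reached a vehicle array. The change was log2 fold change -0.96, SE 0.31, adjusted p = 0.0241, with 5 nM and log2 fold change -1.10, SE 0.31, adjusted p = 0.0089, with 50 nM. The call with 5 nM was lost without 5 nM replicate 1 or 3 or vehicle replicate 2 or 3 (adjusted p 0.0543 to 0.12). DFFA, the inhibitor of the caspase-activated DNase, fell with 5 nM (log2 fold change -0.57, SE 0.17, adjusted p = 0.0145), and DFFB, the DNase itself, rose with 50 nM (log2 fold change 0.54, SE 0.13, adjusted p = 0.00236). AIFM1, the mitochondrial apoptosis-inducing factor, was not called (-0.23 and 0.0038).

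DAPK1, a calmodulin-regulated death kinase, lay on opposite sides of vehicle at the 2 doses, and against vehicle only the fall with 5 nM was called. It read 1887, 1824 and 1805 with vehicle, 1188, 985 and 1168 with 5 nM and 2577, 2239 and 2149.9 with 50 nM. The 5 nM arrays lay below and the 50 nM arrays above every vehicle array. DAPK1 fell 1.66-fold with 5 nM (log2 fold change -0.73, SE 0.16, adjusted p = 0.00186), was not called with 50 nM (log2 fold change 0.33, SE 0.16, adjusted p = 0.097), and was 2.09-fold higher with 50 nM than with 5 nM (log2 fold change 1.06, SE 0.16, adjusted p = 0.000432). Probe set 211214_s_at was called higher with 50 nM (0.65, adjusted p = 0.0218). The rise with 50 nM was also called over the mean of the probe sets (0.49, adjusted p = 0.0216), with only the groups compared (adjusted p = 0.00931) and with array weights (adjusted p = 0.00186).

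Between the doses at 4 weeks, CASP8, CASP10, DAPK1 and BAG1 were higher with 50 nM than with 5 nM, and FAS, TNF, BNIP3L, BIRC2 and TNFRSF10B were lower. These are 4 and 5 of the 40 genes, where 10.1% of all genes were called higher and 7.35% lower. Without any 1 of the 50 nM arrays 3 were lower, with no share over all genes counted for this. Over the members' probe sets 6 were higher and 8 lower (9.53% and 7.07% of all probe sets). The TNF difference, -0.86, was 0 when signals below 32 were raised to 32, since its arrays with either dose were dimmer than that.

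BNIP3L and TNFRSF10B both lie on chromosome 8, where 155 of the other 358 genes tested were lower with 50 nM than with 5 nM and 8 were higher, with a median log2 difference of -0.50. Of the 40 genes tested closest to BNIP3L 23 were lower (median -0.87), and of those closest to TNFRSF10B 21 were (median -0.59). On chromosome 6, 151 of 499 genes were higher with 50 nM than with 5 nM. In that comparison the 40 neighbours of CASP8AP2, itself not called, had a median of 0.46 with 17 called higher, and TNF went against the median of its 40 neighbours, 0.23. With 50 nM against vehicle, where CASP8AP2 was called higher, 26 of its 40 neighbours were higher and 1 lower (median 0.54). In the same comparison 16 of the 40 neighbours of CASP8 on chromosome 2 were higher and 2 lower (median 0.28). Near BIRC2 on chromosome 11, 20 of 40 neighbours were higher with 5 nM than with vehicle (median 0.53). The part of the neighbourhood in the members' values was not tested.

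**Figure D4:**
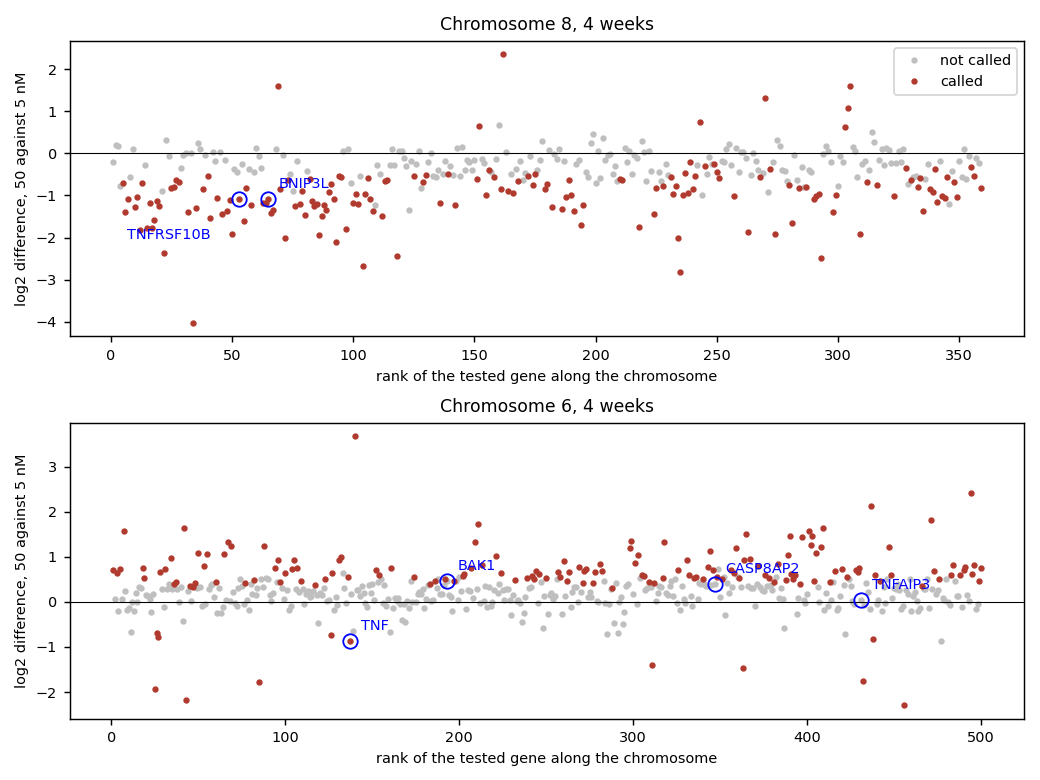
Log2 difference between 50 nM and 5 nM at 4 weeks for each gene tested on chromosomes 8 and 6, by rank along the chromosome; red points have an adjusted p below 0.05 and blue circles mark members. TNFRSF10B and BNIP3L lie among genes that are mostly below 0, and TNF lies below most genes of chromosome 6.

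At 1 week 3 members were called higher with 5 nM and none lower, where 4.98% of all genes were higher and 1.62% lower. With 50 nM, 5 were higher and 3 lower (8.75% and 11.3% of all genes). CASP2, PYCARD and TNFAIP3 were the 3 genes called higher with both doses. TNFAIP3 read 66.7, 74.7 and 82.2 with vehicle, 136, 171 and 157 with 5 nM and 175, 164 and 148 with 50 nM, without overlap between vehicle and rotenone (log2 fold change 1.05, SE 0.14, adjusted p = 0.000287, with 5 nM and log2 fold change 1.12, SE 0.14, adjusted p = 0.000102, with 50 nM). PYCARD read 14.1, 10.7 and 24.3 with vehicle, where 2 of the 3 arrays lay below 16, then 52.2, 49.3 and 44.0 with 5 nM and 50.1, 51.7 and 43.1 with 50 nM (log2 fold change 1.39, SE 0.26, adjusted p = 0.00377, and log2 fold change 1.39, SE 0.26, adjusted p = 0.00172). CASP2 34449_at read 48.5, 59.9 and 64.7 with vehicle, 122, 74.4 and 101 with 5 nM and 175, 154 and 146 with 50 nM (log2 fold change 0.76, SE 0.19, adjusted p = 0.0195, and log2 fold change 1.46, SE 0.19, adjusted p = 9.34e-05), while its 4 other passing probe sets were not called. The CASP2 call with 5 nM was lost without vehicle replicate 1 or 5 nM replicate 1 or 3 (adjusted p 0.0652 to 0.0901).

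The same 3 genes were the only members called between the vehicle groups, higher at 4 weeks than at 1 week in each case, where 2.88% of all genes were higher and 0.72% lower. CASP2 differed by 1.08, PYCARD by 1.25 and TNFAIP3 by 1.13 on the log2 scale (adjusted p = 0.00248, 0.0100 and 0.000131). Their 1-week vehicle arrays thus lay below all the other arrays of both 1-week doses and of the 4-week vehicle. With the 4-week vehicle arrays in place of the 1-week ones, none of the 40 genes was called with either 1-week dose. Without 1-week vehicle replicate 3, 5 members were called with 5 nM and 14 with 50 nM, and without replicate 2 of that group 4 were called with 50 nM. The shares over all genes were not counted with these changes of vehicle arrays, so the members cannot be set beside the background there.

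The other 1-week calls came with 50 nM. TRADD (0.51, adjusted p = 0.017) and FAS (0.41, adjusted p = 0.044) were higher, opposite to their fall at 4 weeks, and XIAP (-0.66, adjusted p = 0.0176) and CASP8AP2 (-0.51, adjusted p = 0.0158) were lower, opposite to their rise at 4 weeks. BNIP3 was lower (-1.09, adjusted p = 0.0456), with vehicle arrays of 1316, 814 and 494 against 308, 351 and 505, which overlapped. Each of these calls was lost without at least 1 array. FAS lost its call whichever of its 6 arrays was left out (adjusted p 0.0573 to 0.154), BNIP3 without vehicle replicate 1 or 2 or 50 nM replicate 1 or 2 (adjusted p 0.0872 to 0.205), XIAP without vehicle replicate 2 or 50 nM replicate 1 or 2 (adjusted p 0.0517 to 0.0919), TRADD without vehicle replicate 2 or 50 nM replicate 3 (adjusted p 0.0798 and 0.0565), and CASP8AP2 without vehicle replicate 1 or 50 nM replicate 1 (adjusted p 0.0873 and 0.0898). With 1-week 5 nM replicate 2 and 50 nM replicate 3 exchanged, FAS, TRADD and CASP8AP2 were not called (adjusted p = 0.170, 0.132 and 0.0803). Between the 1-week doses no member was called by limma, where 0.0109% of all genes were. An unadjusted p under 0.05 was found for 7 of the 40 members and for 1194 of the 9162 genes tested.

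The dose effect itself was compared between the weeks for each member. With 5 nM the effect at 4 weeks was higher than at 1 week in 3 members and lower in 13, where 15.2% of all genes were called higher and 17.5% lower. With 50 nM it was higher in 6 and lower in 9, where 24.3% of all genes were higher and 20.5% lower.

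Of 86 further genes of the same pathways, the NF-kB arm of TNF signalling included, 62 were measured. With 5 nM at 4 weeks 13 were higher and 9 lower, beside 18.6% and 14.3% of all genes tested, and with 50 nM 10 were higher and 9 lower, beside 23.5% and 17.7%. NFKBIA, which encodes the NF-kB inhibitor IkB alpha and is itself an NF-kB target, fell with both doses (log2 fold change -1.02, SE 0.15, adjusted p = 7.96e-05, and log2 fold change -1.51, SE 0.15, adjusted p = 2.66e-06). CHUK, a subunit of the kinase that marks that inhibitor for destruction, rose with both (log2 fold change 1.11, SE 0.20, adjusted p = 0.000594, and log2 fold change 1.22, SE 0.20, adjusted p = 0.000165). With 5 nM the co-chaperone gene BAG4 was higher (log2 fold change 1.55, SE 0.54, adjusted p = 0.0346) and the receptor adaptor gene TRAF5 lower (log2 fold change -1.20, SE 0.18, adjusted p = 0.000111). With 50 nM the kinase gene STK17B was higher (log2 fold change 1.71, SE 0.24, adjusted p = 4.03e-05) and NGFR, a receptor of the TNF receptor family, lower (log2 fold change -1.14, SE 0.34, adjusted p = 0.0132). At 1 week 2 of the 62 were higher and none lower with 5 nM (4.98% and 1.62% of all genes), and 6 were higher and 8 lower with 50 nM (8.75% and 11.3%). With 50 nM against 5 nM at 4 weeks 5 were higher and 6 lower (10.1% and 7.35%).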

How the data were processed

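Affymetrix human arrays measured total RNA in 18 SK-N-MC samples, 3 in each of 6 groups taken from the sample titles. The authors used dChip to normalize the arrays and to derive a model-based index for each probe set, and the deposited values are linear signal intensity per probe set, 22283 in all; the dChip version is not given in the sources used here. Arrays carry no read depth, and their number limits the precision.

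The 68 control probe sets were left out, signals below 16 were raised to 16 and log2 values were taken. Probe sets at 50 or more on at least 3 arrays and listed with 1 gene were kept, and a gene with several was represented by the one with the highest mean. All 18 arrays entered 1 limma fit by group (limma 3.58.1, R 4.3.3, intensity trend), with p-values adjusted over all genes by Benjamini-Hochberg and called at an adjusted p below 0.05. Fold changes are on this floored scale.

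Values are given in full for members called with a fold change of at least 1.5 in a dose comparison against vehicle or between the doses at 4 weeks, and for BCL2, CASP8 and CASP8AP2; of the other pathway genes, up to 4 called ones with the largest change in each 4-week comparison with vehicle are named; and for CASP8 and BCL2 the 3 genes with the highest Pearson r are named. Other genes named were chosen after their values were seen. The members and lists were chosen with earlier results of these data known. Alternatives covered the floor, a started log, normalization, the filter, the probe set of a gene, the arrays in the fit, the trend, array weights, the replicate number as a block, the methods' t-test and leaving out each array. The exchange of 2 arrays and the use of the 4-week vehicle for the 1-week doses were added after seeing the data.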

Additional observations from a re-analysis of the deposited data

Results flagged for a closer look

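The effect of a dose differed between 4 weeks and 1 week in the following genes, by the interaction term of the limma fit; values are the log2 effect at 4 weeks minus that at 1 week, the effect of each week being taken against its own vehicle. With 5 nM the 4-week effect was lower for PYCARD (-2.43, adjusted p = 0.000128), ENDOG (-1.83, adjusted p = 0.00436), TNFAIP3 (-1.81, adjusted p = 7.84e-06), FASLG (-1.66, adjusted p = 0.000151) and CASP10 (-1.50, adjusted p = 0.000506). It was also lower for TNF (-1.34, adjusted p = 0.00162), TRADD (-1.30, adjusted p = 0.000153), BAG1 (-1.04, adjusted p = 0.000982), FAS (-0.84, adjusted p = 0.00336) and DAPK1 (-0.81, adjusted p = 0.00968). XIAP (0.80, adjusted p = 0.0249) and CASP8AP2 (0.79, adjusted p = 0.00543) had the higher effect at 4 weeks. Also called with 5 nM were BAK1 (-0.76, adjusted p = 0.0234), TNFRSF1A (-0.56, adjusted p = 0.0194) and DFFA (-0.70, adjusted p = 0.0298), lower, and DFFB (0.59, adjusted p = 0.0172), higher.

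With 50 nM the 4-week effect was lower for TNF (-2.06, adjusted p = 1.98e-05), PYCARD (-1.94, adjusted p = 0.000347), FASLG (-1.93, adjusted p = 1.47e-05), TNFAIP3 (-1.84, adjusted p = 3.18e-06) and TRADD (-1.71, adjusted p = 4.99e-06). The same held for ENDOG (-1.55, adjusted p = 0.00823), FAS (-1.51, adjusted p = 1.24e-05) and CASP2 (-1.26, adjusted p = 0.000906). It was higher for CASP8AP2 (1.69, adjusted p = 4.99e-06), BCL2L2 (1.36, adjusted p = 0.000675), XIAP (1.24, adjusted p = 0.000936), CASP8 (1.13, adjusted p = 0.000603) and BCL2 (0.98, adjusted p = 0.00834). The BCL2 value is that of probe set 203685_at. In the same comparison 203684_s_at (-1.03, adjusted p = 0.00129) and 207004_at (-1.39, adjusted p = 0.000513) were called lower, so it gives no direction for the gene. Also called with 50 nM were BCL2L11 (-0.86, adjusted p = 0.00955), lower, and DFFB (0.87, adjusted p = 0.000708), higher.

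All these differences include the 1-week vehicle arrays, the least alike of any group. CASP2, PYCARD and TNFAIP3 were called lower there than on the 4-week vehicle arrays. ENDOG, not called between the vehicle groups, read 181, 145 and 73.0 there against 205, 232 and 238 at 4 weeks. Unless another probe set is named, each value is that of the probe set used for the gene. Groups of 3 arrays are too small for a test of single outlying arrays, and none was made.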

How the results depend on the processing

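Calls of the named members were followed in the comparisons with vehicle and between the doses at 4 weeks. This covered every alternative but the averaging of a gene's probe sets and the methods' t-test, which gave counts only. Under these, 11 of 16 kept their call with 5 nM and 10 of 11 with 50 nM at 4 weeks, and 6 of 9 between these doses. None of the 1-week calls did. Between the vehicle groups, and for the dose effects between weeks, only the number of members called was followed. The genes flagged above were therefore not checked singly under these alternatives. Averaging turned BCL2 to -0.37 with 5 nM and -0.19 with 50 nM. Some uncalled changes at 4 weeks were called under an alternative. With array weights these included PYCARD with 50 nM (adjusted p = 0.0076) and the CASP8AP2 difference between the doses (adjusted p = 0.0377). With the 4-week vehicle in place of the 1-week one, no member was called with 5 nM or 50 nM (0 and 0), and CASP2 turned to -0.32 with 5 nM and TNFAIP3 to -0.082 with 5 nM and -0.0073 with 50 nM. Under this and the other alternatives only members were counted, so no share over all genes stands beside these numbers. Fitting only the groups compared left 0 members called with 5 nM and 3 with 50 nM at 1 week and 1 between the vehicle groups. Array weights gave 7, 19 and 10 at 1 week (5 nM, 50 nM and between doses), 22 with 50 nM and 18 between the doses at 4 weeks, 7 between vehicle groups and 24 for the 50 nM effect between weeks. The methods' t-test, adjusted, called 0 and 0 at 1 week, 5 between the doses at 4 weeks and 0 between vehicle groups; unadjusted it called 8 between the 1-week doses and 6 between vehicle groups.

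Leaving out 1 array at a time gave 2 to 5 members with 5 nM at 1 week, 4 to 14 with 50 nM at 1 week and 2 to 7 between vehicle groups. The highest of each came without 1-week vehicle replicate 3. With 50 nM at 1 week, 4 were called without 1-week vehicle replicate 2 or 50 nM replicate 1, and 5 without 50 nM replicate 2. At 4 weeks the ranges were 12 to 17 with 5 nM, 11 to 16 with 50 nM and 7 to 10 between doses.

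With the replicate number as a block, 4 and 7 members were called at 1 week, 18 and 13 at 4 weeks (5 nM and 50 nM), 9 and 0 between the doses at 4 weeks and 1 week, 3 between vehicle groups, and 17 and 15 for the 5 nM and 50 nM effects between weeks. Of the named members FAS (adjusted p = 0.0542) and BNIP3 (adjusted p = 0.0566) were then no longer called with 50 nM at 1 week. Same-numbered arrays correlated between -0.276 and 0.322 and in no comparison were all 3 over 0.1, so the numbers were not taken as pairs. Signals near 16, as for TNF with 50 nM and PYCARD, give bounds rather than levels. The cause of these changes was not tested.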
